A study of Homo sapiens with 12 samples.

Results

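The kinesin family genes are described here across 4 siRNA groups of a human cell line. They are the 43 protein-coding genes whose GENCODE 29 symbol is KIF followed by a digit, or KIFC, among 60554 gene IDs in the count files. Of the 43, 42 encode members of 13 kinesin subfamilies. KIF1BP, the kinesin-binding protein that now carries the symbol KIFBP, has no motor and was kept because its older symbol meets the rule. By their textbook roles, 14 were listed as mitotic kinesins, 17 as transport kinesins and 12 as other kinesins. The libraries came from HEK293 cells, a dividing line derived from human embryonic kidney, which the cell line label calls HEK293T, all at passage 10. There were 12 libraries in 4 groups of 3: knockdown with an ON-TARGETplus SMARTpool of siRNAs against RBM17, U2SURP or CHERP, and a control given ON-TARGET plus Non-targeting siRNA #3, whose label names no pool and which the series text calls a scramble sequence. All 4 groups received siRNA, and no untreated cells are among them. Library numbers in the labels run in blocks by group, so the order of the libraries and the group cannot be told apart. RBM17, U2SURP and CHERP are splicing factors that associate with the U2 snRNP, the part of the spliceosome that recognises the branch point. The labels do not tell whether a group's libraries are separate cultures or repeats of 1 culture, so the spread behind each p-value may be technical.

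Kinesins are motor proteins that hydrolyse ATP to walk along microtubules or to take microtubule ends apart. In dividing cells, one set of them builds and orients the spindle, moves chromosomes and closes the cleavage furrow. Many of that set are made mainly in G2 and mitosis, through promoters that hold a cell cycle homology region (CHR) and CCAAT boxes. Another set carries vesicles, mitochondria and protein complexes through the cytoplasm of dividing and non-dividing cells alike, and several of its members, such as KIF1A, KIF5A, KIF5C and KIF17, are known above all from neurons.

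The 12 libraries held 252505520 to 320986785 counts and 35648 to 38111 detected genes, and kinesin family genes took 0.274% to 0.303% of the counts. Levels are given as CPM, the read count per fixed total of reads after scaling by the trimmed mean of M-values (TMM), and between genes as CPM per kilobase of merged exon. A gene was called where edgeR's quasi-likelihood test gave a Benjamini-Hochberg adjusted p under 0.05 over 29003 genes, and all adjusted p-values below come from that fit unless another setting is named. Unless a unit follows, a change or difference is a log2 fold change, with its standard error (SE) after the ± sign. Each siRNA pool lowered its target, RBM17 to 23.0%, U2SURP to 30.5% and CHERP to 29.3% of control. Mitochondrial genes took 7.88% to 8.70% of the counts in control and 3.98% to 5.15% in the knockdowns, and the part of that difference in the kinesin results was not tested. Genes listed as expressed in the line were present in control, with XRCC5 at 354 CPM, VIM at 262, NEFM at 259, KRT18 at 40.6, KRT8 at 36.5 and NES at 5.89. The 10 fibroblast, 10 blood and 7 endothelial markers summed to no more than 23.4, 5.59 and 1.52 CPM in any library, and HBB, which defines red cells, was at 0. The RBM17 library 2 and the control library 3 had the fewest detected genes of their groups, and counts were also made without both. By the mean chi-square per gene between 2 libraries, control library 3 stood apart too, at 39.8 and 39.3 from libraries 1 and 2. Those were 18.0 from each other. In the RBM17 group, however, library 1 stood apart, at 34.9 and 46.6 from libraries 2 and 3, which were 11.6 from each other. CHERP library 1 did so too, at 25.7 and 42.2, against 10.8 between libraries 2 and 3. Each library was also left out alone. The strand setting of the counting is not given in the sources used here, and 28 of the 43 genes overlap another annotated gene, so reads of overlapping genes may be mixed.

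Of the 43 genes, 42 passed the filter on low counts and 33 had a mean of at least 10 CPM. KIF2B, a kinesin-13 known from testis, had 0 counts in each of the 12 libraries and was not tested, and KIF12, KIF25 and KIF19 were under 1 CPM. Per kilobase of exon, control cells held most of KIF5B, the ubiquitous kinesin-1 heavy chain that carries mitochondria and vesicles, at 29.4 CPM per kilobase. Close behind it in control were 4 mitotic kinesins: KIF22 at 26.5, KIF15 at 26.3, KIF11 at 25.9 and KIFC1 at 25.1. From KIF22 to KIFC1, neighbours in this order differed by less than the larger of their SDs (n = 3), which ran from 0.623 to 2.08. The lowest levels that were tested belonged to motors of cilia or of narrow expression, with KIF6 at 0.154, KIF25 at 0.144 and KIF19, a kinesin of cilium tips, at 0.0130. The 14 mitotic genes together made up 55.1% of the length-scaled kinesin level in control, against 32.6% for the 17 transport genes and 12.3% for the 12 others. Without length scaling the order turned, the mitotic genes summing to 1131 CPM in control and the transport genes to 1353.

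**Figure D1:**
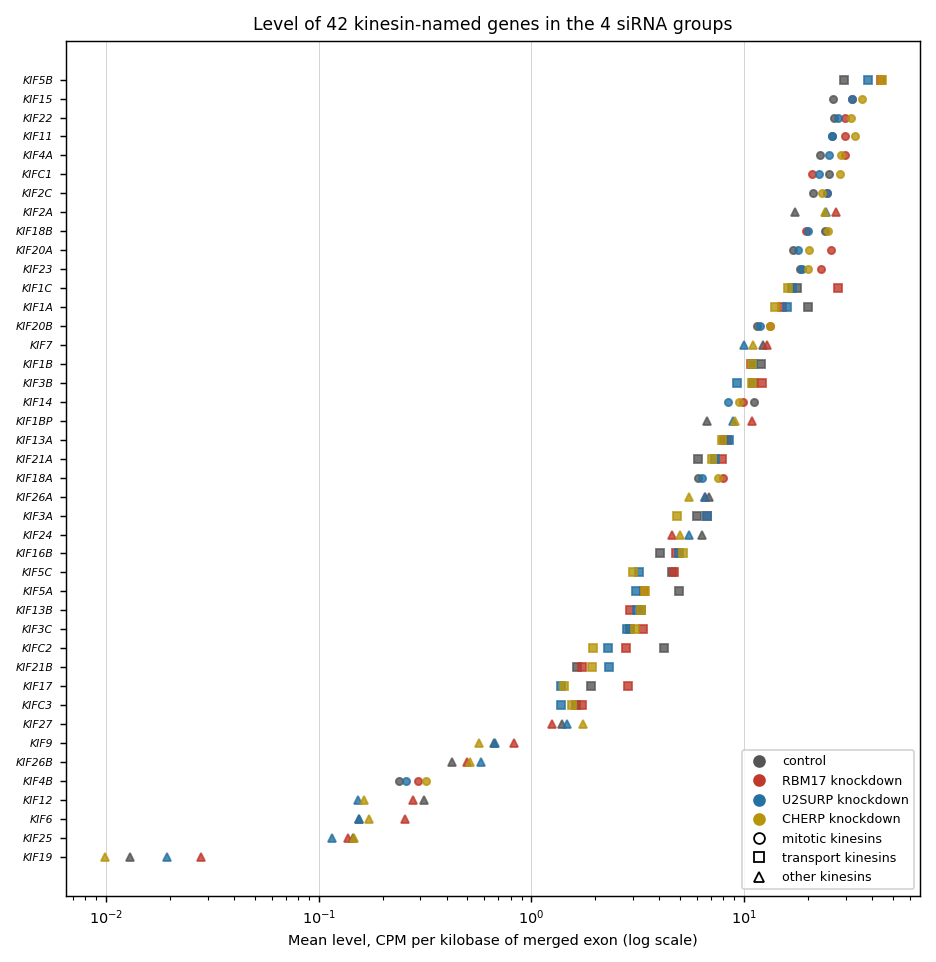
Mean level of the 42 tested genes in CPM per kilobase of merged exon (log scale), with a gene on each row and colour for the siRNA group; circles are mitotic, squares transport and triangles other kinesins. KIF5B stands highest, and most mitotic kinesins sit in the upper part of the plot. The spread of the 4 groups within a gene is far smaller than the range over all genes, though neighbouring genes overlap.

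Changes were modest in size and widespread, among kinesins as among all genes tested. In RBM17 knockdown 23 of the 42 kinesin genes were called higher and 9 lower than in control, where 25.4% of all genes tested were called higher and 29.3% lower, 54.7% in all. U2SURP knockdown gave 11 higher and 14 lower, beside 21.1% and 22.2% of all genes, 43.3% in all. In CHERP knockdown 18 were higher and 14 lower, beside 22.8% and 24.6%, 47.3% in all. The median log2 fold change of the 42 was 0.19, 0.011 and 0.064 in the knockdowns of RBM17, U2SURP and CHERP, against -0.099, -0.025 and -0.0035 over all genes tested and 0.06, 0.0095 and -0.0028 over the 16291 protein-coding genes among them. Of those protein-coding genes 38.7%, 29.4% and 29.7% were called higher and 27.2%, 26.8% and 31.0% lower. The 11 higher kinesin calls in U2SURP knockdown and the 14 lower calls in CHERP knockdown are near those shares. Leaving out the RBM17 library 2 and the control library 3 together gave 22 higher and 8 lower, 11 and 14, and 19 and 12.

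**Figure D2:**
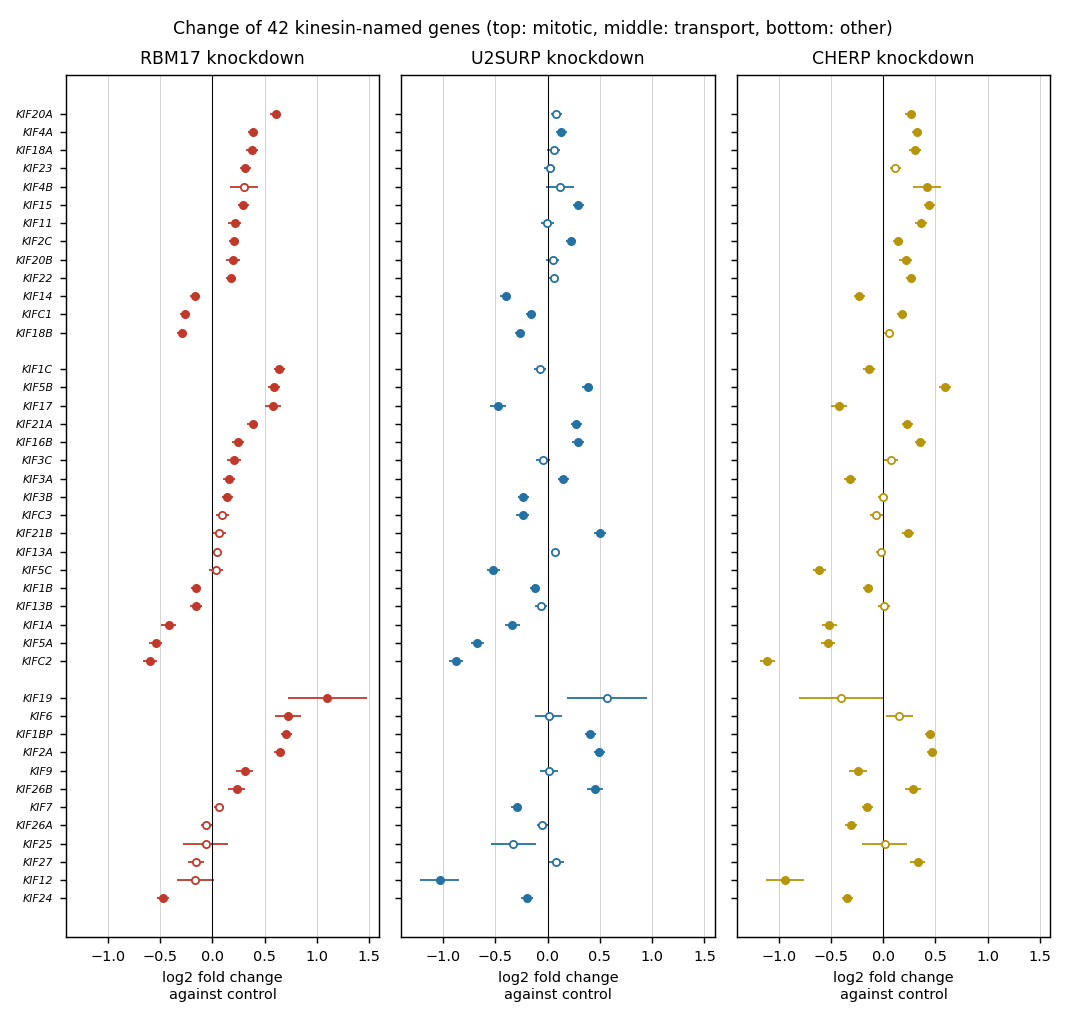
Log2 fold change against control of the 42 tested genes in each knockdown, with bars of 1 standard error; filled points were called and open points were not. Upper rows are mitotic, middle rows transport and lower rows other kinesins, each ordered by the change in RBM17 knockdown. Most mitotic points lie right of 0 in RBM17 and CHERP knockdown, while transport points spread to both sides in each knockdown.

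Among the mitotic kinesins, 9 of the 13 tested rose and 3 fell in RBM17 knockdown, 3 rose and 3 fell in U2SURP knockdown, and 10 rose and 1 fell in CHERP knockdown. Their median log2 fold change was 0.21, 0.057 and 0.26. Over all genes tested the higher and lower shares were 25.4% and 29.3%, 21.1% and 22.2%, and 22.8% and 24.6%. The U2SURP counts and the 3 lower calls in RBM17 knockdown are near the background. In these bulk libraries a change in the number of cells in mitosis and a change in the RNA per cell cannot be told apart.

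The windows of 250 bases before the RefSeq starts (build GRCh38.p14) were searched on both strands for the CHR letters TTTGAA or TTCGAA and for CCAAT, and matches that overlapped were each counted. The RefSeq table had an entry for 35 of the 43 genes, and none for KIF13B, KIF19, KIF21B, KIF26B, KIF27, KIF5A, KIFC2 and KIFC3. CHR letters stood in 6 of the 14 mitotic genes (42.9%), 1 of 12 transport genes (8.33%), 0 of 9 others and 17.2% of all 27305 genes in the table. CCAAT stood in 11 of 14 (78.6%), 4 of 12 (33.3%), 4 of 9 (44.4%) and 37% of all. Both motifs together stood in 5 of the 14 mitotic genes, against 7.38% of all genes. The 6 mitotic genes with CHR letters were KIF11, KIF15, KIF18A, KIF22, KIF23 and KIF4A, and they gave 6 higher and 0 lower calls in RBM17 knockdown, 2 and 0 in U2SURP knockdown, and 5 and 0 in CHERP knockdown. The 7 tested mitotic genes without the letters gave 3 higher and 3 lower, 1 and 3, and 5 and 1. Split by CCAAT instead, the 11 genes with it gave 7 higher and 3 lower, 1 and 3, and 8 and 1, and the 2 tested genes without it, KIF15 and KIF2C, gave 2 higher and 0 lower in each knockdown. Of all genes tested 25.4% were higher and 29.3% lower in RBM17, 21.1% and 22.2% in U2SURP, and 22.8% and 24.6% in CHERP knockdown. A match of letters is a description of the sequence and not a binding site. The sequences below, from RefSeq, stop where GENCODE 29 annotates an exon, and capitals mark the CHR letters and CCAAT, in either orientation. KIF11 at chr10:92592980-92593129 (plus strand) and KIF4A at chrX:70289980-70290089 (plus strand) hold both motifs, with the CCAAT letters upstream of the CHR letters.
KIF11: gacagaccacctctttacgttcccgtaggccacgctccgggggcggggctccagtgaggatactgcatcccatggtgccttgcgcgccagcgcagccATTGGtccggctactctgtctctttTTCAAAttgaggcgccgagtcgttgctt
KIF4A: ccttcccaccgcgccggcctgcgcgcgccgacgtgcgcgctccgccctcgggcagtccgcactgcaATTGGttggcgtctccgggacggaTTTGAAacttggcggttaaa
KIF14 at chr1:200620752-200620901 (minus strand) and KIF18B at chr17:44947774-44947911 (minus strand) are mitotic genes that fell in RBM17 knockdown, and they hold CCAAT without CHR letters.
KIF14: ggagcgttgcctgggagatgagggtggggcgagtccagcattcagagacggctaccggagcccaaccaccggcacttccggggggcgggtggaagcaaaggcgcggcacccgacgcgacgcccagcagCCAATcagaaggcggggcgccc
KIF18B: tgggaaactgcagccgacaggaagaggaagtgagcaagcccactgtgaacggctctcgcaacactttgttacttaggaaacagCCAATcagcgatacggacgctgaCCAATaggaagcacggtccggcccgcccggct
KIF5B at chr10:32056432-32056575 (minus strand) is the transport gene with both motifs, its CHR letters standing farther from the start than in KIF11 or KIF4A.
KIF5B: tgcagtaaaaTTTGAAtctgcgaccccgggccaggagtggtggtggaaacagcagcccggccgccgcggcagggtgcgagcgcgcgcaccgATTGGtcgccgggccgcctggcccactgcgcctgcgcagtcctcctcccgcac

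Spindle assembly depends on KIF11, which slides antiparallel microtubules apart to separate the poles, on KIF15, which backs it up, and on KIFC1, a minus-end motor of the kinesin-14 subfamily that draws poles together. KIF11 (chr10:92593286-92655395) read 115, 127 and 135 CPM in the 3 control libraries, 146, 152 and 139 in RBM17 knockdown, 126, 129 and 121 in U2SURP knockdown and 149.6, 167 and 168 in CHERP knockdown. The RBM17 and CHERP libraries all lay above the control libraries, and those of U2SURP knockdown lay among them. Its log2 fold change was 0.21 ± 0.060 (SE), adjusted p = 0.00404, in RBM17 knockdown, and 0.36 ± 0.060 (SE), adjusted p = 2.11e-05 in CHERP knockdown. KIF15 (chr3:44761717-44873376), the mitotic kinesin with the highest mean level per kilobase, read 136, 138 and 143 CPM in control and 159, 180.1 and 174, 164, 175 and 172, and 181, 193 and 194 in the knockdowns of RBM17, U2SURP and CHERP. Every knockdown library was above every control library. The rise was 0.30 ± 0.053 (adjusted p = 4.41e-05) in RBM17, 0.29 ± 0.053 (adjusted p = 8.96e-05) in U2SURP and 0.44 ± 0.053 (adjusted p = 2.47e-07) in CHERP knockdown. KIF15 shares its strand with the overlapping TMEM42.

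KIFC1 went in opposite directions. It read 85.01, 81.2 and 85.3 CPM in control, 70.7, 70.7 and 68.3 in RBM17 knockdown, 77.5, 71.4 and 76.6 in U2SURP knockdown and 93.2, 98.0 and 93.4 in CHERP knockdown. All RBM17 and U2SURP libraries lay below the control libraries and all CHERP libraries above them. The log2 fold changes were -0.26 ± 0.049 (SE), adjusted p = 7.36e-05, in RBM17 knockdown, -0.16 ± 0.049 (adjusted p = 0.0112) in U2SURP knockdown and 0.18 ± 0.049 (adjusted p = 0.00406) in CHERP knockdown. The U2SURP call ended without U2SURP library 2 (adjusted p 0.0913). Compared directly, KIFC1 differed by -0.44 ± 0.049 (SE), adjusted p = 6.06e-08, between RBM17 and CHERP knockdown.

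The chromokinesins KIF4A and KIF22 bind chromosome arms and push them toward the spindle equator, and KIF4A also trims the anaphase midzone. KIF4A (chrX:70290090-70420832) read 103, 99.4 and 108 CPM in control, 128, 142 and 137 in RBM17, 112, 115 and 113 in U2SURP and 127, 132 and 129.7 in CHERP knockdown. All 9 knockdown libraries exceeded the control libraries, those of U2SURP knockdown by the least. The log2 fold change was 0.39 ± 0.051 (SE), adjusted p = 5.62e-07 in RBM17 knockdown, and 0.33 ± 0.051 (adjusted p = 1.07e-05) in CHERP knockdown. In U2SURP knockdown it was 0.13 ± 0.051 (adjusted p = 0.0396), a call that ended without U2SURP library 1 or 2 or 3 or control library 1 or 2 and with no filter on low counts (adjusted p 0.0795 to 0.172). KIF22 rose in RBM17 knockdown (mean 129 ± 1.91 CPM, SD, n = 3, against 114 ± 3.95; log2 0.18, adjusted p = 0.00265) and in CHERP knockdown (137 ± 0.912 CPM; log2 0.27, adjusted p = 5.07e-05). KIF4B, a copy of KIF4A without introns, was at 0.238 CPM per kilobase in control, against 22.8 for KIF4A, and reads could be split between the copies, so its values are uncertain. It read 0.969, 1.00 and 1.15 CPM in control, 1.30, 0.959 and 1.12 in U2SURP knockdown and 1.54, 1.41 and 1.23 in CHERP knockdown, where it was called at 0.42 ± 0.13 (adjusted p = 0.011), a call that ended without CHERP library 1 or control library 1 (adjusted p 0.0545 to 0.0581). In RBM17 knockdown, at 1.28, 1.29 and 1.29 CPM, KIF4B was not called (log2 0.31, adjusted p = 0.0552), but it was without control library 3, with DESeq2 size factors, by DESeq2 and in a fit of the 2 groups alone (adjusted p 0.0167 to 0.0304).

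Motors that shorten microtubules control chromosome attachment and alignment: KIF2C, a kinesin-13 of centromeres, and the kinesin-8 pair KIF18A, which damps chromosome movements, and KIF18B, which acts on astral microtubules. The kinesin-8 genes parted. KIF18A read 25.9, 28.2 and 31.0 CPM in control, 37.6, 37.6 and 35.8 in RBM17, 30.1, 30.0 and 28.5 in U2SURP and 34.4, 34.6 and 36.4 in CHERP knockdown, and rose in RBM17 (0.38 ± 0.059 SE, adjusted p = 7.07e-06) and CHERP knockdown (0.31 ± 0.059, adjusted p = 0.000136). KIF18B (chr17:44924709-44947711) read 116, 109 and 108 CPM in control, 88.6, 91.5 and 93.0 in RBM17, 95.5, 91.1 and 92.0 in U2SURP and 119, 113 and 114 in CHERP knockdown. Its RBM17 and U2SURP libraries were all below control, and the CHERP libraries overlapped control. KIF18B fell by 0.29 ± 0.048 (SE; adjusted p = 1.72e-05) in RBM17 knockdown and by 0.26 ± 0.048 (adjusted p = 0.000101) in U2SURP knockdown, while in CHERP knockdown its change was 0.052 ± 0.048 (adjusted p = 0.407). KIF2C rose in the knockdowns of RBM17 (0.21, adjusted p = 0.000671), U2SURP (0.22, adjusted p = 0.000578) and CHERP (0.14, adjusted p = 0.018). The CHERP call for KIF2C ended without CHERP library 2 or 3 or control library 2 and with no filter on low counts (adjusted p 0.052 to 0.102).

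Cytokinesis uses KIF20A and KIF23, kinesin-6 motors of the central spindle, KIF20B of the same subfamily, and KIF14, a kinesin-3 that brings citron kinase to the midbody. KIF20A (chr5:138178719-138187715) had the largest rise of any mitotic kinesin in RBM17 knockdown. It read 64.8, 66.2 and 69.8 CPM in control, 94.4, 108 and 104 in RBM17, 72.5, 69.4 and 70.4 in U2SURP and 83.0, 80.6 and 77.5 in CHERP knockdown, the RBM17 libraries lying well above all others and the CHERP libraries between. The log2 fold change was 0.61 ± 0.054 (SE), adjusted p = 1.3e-09, in RBM17 knockdown, 0.26 ± 0.053 (adjusted p = 0.000236) in CHERP knockdown and 0.081 ± 0.053 (adjusted p = 0.238) in U2SURP knockdown. KIF20A overlaps CDC23 and BRD8 on the other strand. KIF23 rose in RBM17 knockdown, from 121 ± 3.77 to 151 ± 6.49 CPM (SD, n = 3; log2 0.32, adjusted p = 8.3e-06). In CHERP knockdown KIF23 was at 131 ± 4.80 CPM and not called (0.12, adjusted p = 0.0585), though it was without CHERP library 1 or control library 3, with DESeq2 size factors, by DESeq2, in a fit of protein-coding genes and without RBM17 library 2 and control library 3 together (adjusted p 0.017 to 0.0331). KIF20B was called higher in RBM17 (0.20, adjusted p = 0.0112) and CHERP knockdown (0.21, adjusted p = 0.00818). Its RBM17 libraries overlapped control, and that call ended without RBM17 library 1 or control library 1 and in a fit of protein-coding genes (adjusted p 0.0504 to 0.113). The CHERP call for KIF20B ended without CHERP library 3 or control library 1 (adjusted p 0.0806 to 0.0874).

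KIF14 was the mitotic kinesin that fell in all 3 knockdowns. It read 76.8, 83.3 and 82.4 CPM in control, 75.9, 72.3 and 68.2 in RBM17, 63.0, 61.9 and 59.0 in U2SURP and 69.3, 69.4 and 68.6 in CHERP knockdown. No knockdown library reached the lowest control library, and the U2SURP libraries were the lowest. The log2 fold change was -0.40 ± 0.052 (SE), adjusted p = 1.16e-06, in U2SURP knockdown, -0.23 ± 0.052 (adjusted p = 0.000804) in CHERP knockdown and -0.17 ± 0.052 (adjusted p = 0.00927) in RBM17 knockdown. The RBM17 call ended without RBM17 library 3, with DESeq2 size factors, by DESeq2, in a fit of the 2 groups alone and without RBM17 library 2 and control library 3 together (adjusted p 0.0501 to 0.1).

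**Figure D3:**
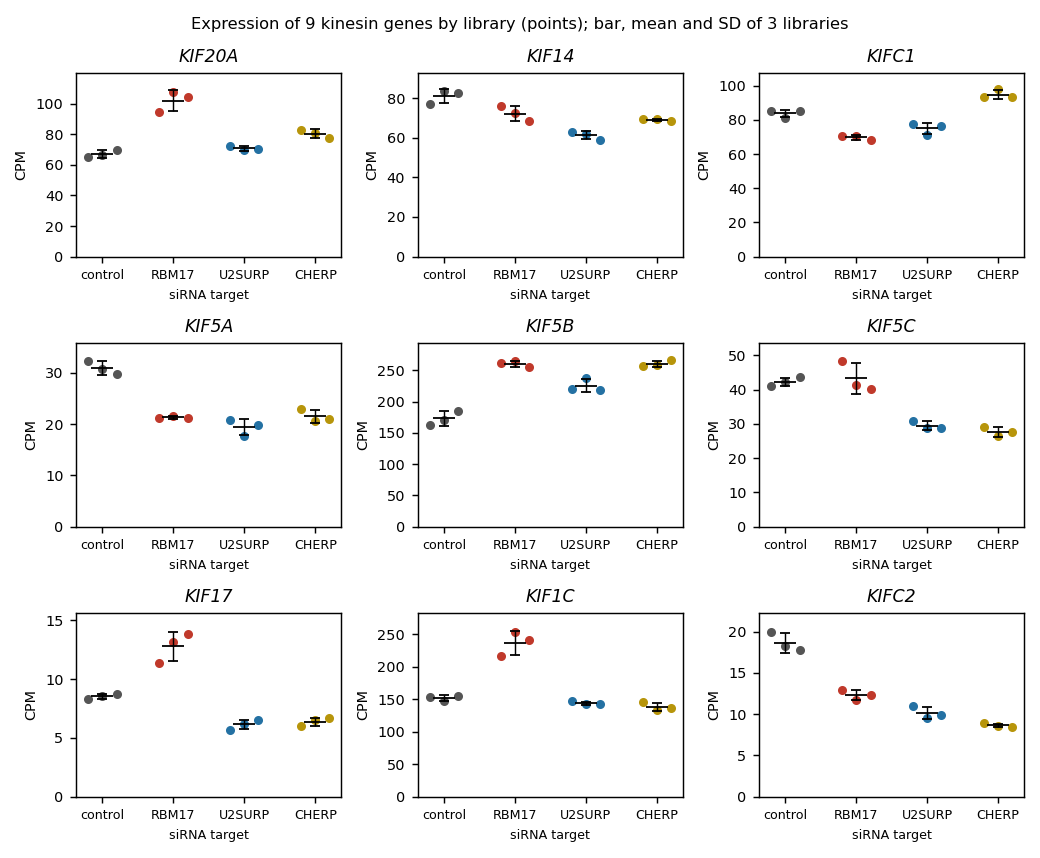
CPM of 9 kinesin genes in each library (points), with the mean and SD of the 3 libraries of a group; each axis starts at 0. KIF20A, KIF17 and KIF1C stand out in RBM17 knockdown, KIFC1 lies below control in RBM17 and U2SURP and above it in CHERP knockdown, and KIF5B rises where KIF5A falls.

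Transport kinesins moved in both directions. Of the 17, 8 rose and 5 fell in RBM17 knockdown, 5 rose and 8 fell in U2SURP knockdown, and 4 rose and 8 fell in CHERP knockdown, with medians of 0.094, -0.074 and -0.065. Over all genes tested the higher and lower shares were 25.4% and 29.3%, 21.1% and 22.2%, and 22.8% and 24.6%. Over the protein-coding genes tested they were 38.7% and 27.2%, 29.4% and 26.8%, and 29.7% and 31.0%. The 5 lower calls in RBM17 knockdown and the 4 higher calls in CHERP knockdown are near the background. So are the 5 higher calls in U2SURP knockdown, by the protein-coding share. The 8 higher calls in RBM17 knockdown are closer to the protein-coding share than to that of all genes. In RBM17 knockdown the 8 higher calls became 5 in a fit of protein-coding genes, and the 5 lower calls became 3 with DESeq2 size factors or in a fit of the 2 groups alone. Of the 12 neuron markers, 8 were called higher and 3 lower in RBM17 knockdown, 3 and 3 in U2SURP knockdown, and 2 and 5 in CHERP knockdown. Their summed level was 53.0 to 58.1 CPM in control, 100.7 to 106 in RBM17, 50.1 to 52.6 in U2SURP and 39.2 to 42.1 in CHERP knockdown, SYP alone giving 21.5, 53.4, 17.4 and 8.15 on average. SNAP25 averaged 0.351 CPM in control and 2.56 in RBM17 knockdown, MAP2 0.634 and 2.15, and INA 11.2 and 22.9. The 3 lower there were SYT1, which averaged 16.5 CPM in control and 14.8 in RBM17 knockdown, TUBB3 (0.301 and 0.173) and ELAVL3 (0.0823 and 0.037). The part of these genes in the kinesin results was not tested.

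The kinesin-1 heavy chains, which pair with light chains to carry mitochondria, vesicles and mRNA, split by gene. KIF5B (chr10:32009010-32056431) was the transport kinesin with the highest mean level per kilobase, though not in CPM. It read 162, 171 and 185 CPM in control, 262, 265 and 255 in RBM17, 221, 237 and 218 in U2SURP and 256, 258 and 266 in CHERP knockdown. Its lowest knockdown library was above its highest control library. KIF5B rose by log2 0.59 ± 0.054 (SE), adjusted p = 2.1e-09, in RBM17 knockdown, by 0.38 ± 0.054 (adjusted p = 3.41e-06) in U2SURP knockdown and by 0.59 ± 0.054 (adjusted p = 3.36e-09) in CHERP knockdown. KIF5A (chr12:57549998-57586632), a neuronal heavy chain, read 32.4, 30.7 and 29.8 CPM in control, 21.2, 21.6 and 21.1 in RBM17, 20.7, 17.6 and 19.8 in U2SURP and 22.9, 20.6 and 21.1 in CHERP knockdown. Here every knockdown library lay below every control library. KIF5A changed by -0.54 ± 0.063 (SE), adjusted p = 9.61e-08, in RBM17, by -0.68 ± 0.063 (adjusted p = 1.03e-08) in U2SURP and by -0.53 ± 0.063 (adjusted p = 2.16e-07) in CHERP knockdown. KIF5C (chr2:148875250-149026759), the other neuronal heavy chain, read 41.0, 42.2 and 43.6 CPM in control, 48.5, 41.3 and 40.1 in RBM17, 31.0, 28.8 and 28.7 in U2SURP and 29.1, 26.4 and 27.5 in CHERP knockdown. RBM17 and control libraries overlapped, and those of U2SURP and CHERP knockdown were far lower. The KIF5C log2 fold change was 0.035 ± 0.064 (adjusted p = 0.666) in RBM17, -0.52 ± 0.064 (adjusted p = 5.41e-07) in U2SURP and -0.61 ± 0.064 (adjusted p = 3.17e-08) in CHERP knockdown. Directly compared, KIF5C was higher in RBM17 than in CHERP knockdown by 0.65 ± 0.064 (SE), adjusted p = 9.16e-09.

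Kinesin-2 motors drive transport in cilia and of endosomes: KIF3A pairs with KIF3B or KIF3C, and KIF17 works as a homodimer. KIF17 (chr1:20664014-20718017) read 8.29, 8.54 and 8.74 CPM in control, 11.4, 13.1 and 13.8 in RBM17, 5.69, 6.20 and 6.499 in U2SURP and 5.98, 6.47 and 6.64 in CHERP knockdown. The RBM17 libraries stood above control, and those of U2SURP and CHERP knockdown stood together below it. Its log2 fold changes were 0.58 ± 0.078 (SE), adjusted p = 8.34e-07, in RBM17 knockdown, -0.47 ± 0.079 (adjusted p = 2.87e-05) in U2SURP knockdown and -0.42 ± 0.079 (adjusted p = 9.59e-05) in CHERP knockdown. In the direct comparisons KIF17 was higher in RBM17 than in U2SURP knockdown by 1.06 ± 0.079 (adjusted p = 1.92e-10), the largest direct difference of any kinesin with a mean of at least 1 CPM. KIF17 overlaps AL663074.2 on its own strand.

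KIF3A and KIF3B, partners in 1 motor, did not change together. KIF3A read 39.4, 42.5 and 42.1 CPM in control, 48.5, 45.2 and 44.8 in RBM17, 45.2, 48.7 and 43.6 in U2SURP and 33.8, 32.4 and 33.2 in CHERP knockdown, where all libraries were below control and the log2 fold change was -0.32 ± 0.055 (SE), adjusted p = 3.56e-05. RBM17 and U2SURP libraries were above control by less (0.16, adjusted p = 0.0158, and 0.15, adjusted p = 0.0294). The RBM17 call for KIF3A ended without RBM17 library 1 or control library 1 and in a fit of protein-coding genes (adjusted p 0.0754 to 0.136). The U2SURP call for KIF3A ended without U2SURP library 1 or 2 or control library 1 (adjusted p 0.0764 to 0.2). KIF3B had means of 66.9 ± 1.98 CPM in control, 73.9 ± 1.94 after RBM17, 56.8 ± 2.33 after U2SURP and 66.8 ± 3.46 after CHERP knockdown (SD, n = 3), and it fell in U2SURP knockdown (-0.23 ± 0.052 SE, adjusted p = 0.000684). In RBM17 knockdown it was called higher at 0.14 (adjusted p = 0.0212), a call that ended without RBM17 library 2 or 3 or control library 1 or 2 and in a fit of protein-coding genes (adjusted p 0.0541 to 0.148). KIF3C was called higher in RBM17 knockdown (21.4 ± 1.41 against 18.5 ± 0.492 CPM; 0.21, adjusted p = 0.0135), and that call ended without RBM17 library 1 or control library 2 and in a fit of protein-coding genes (adjusted p 0.0598 to 0.0835).

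Kinesin-3 motors carry synaptic vesicle precursors, lysosomes and endosomes. KIF1A (chr2:240713761-240821036), the synaptic vesicle motor, read 355, 323 and 326 CPM in control, 279, 236 and 237 in RBM17, 287, 242 and 265 in U2SURP and 254, 226 and 223 in CHERP knockdown. All 9 knockdown libraries were below control. The log2 fold change was -0.42 ± 0.071 (SE), adjusted p = 2.48e-05, in RBM17, -0.34 ± 0.071 (adjusted p = 0.000422) in U2SURP and -0.51 ± 0.071 (adjusted p = 2.25e-06) in CHERP knockdown. KIF1C (chr17:4997948-5028401), a broadly expressed vesicle motor, read 153, 147 and 155 CPM in control, 216, 253 and 241 in RBM17, 147, 142 and 143 in U2SURP and 145, 133 and 136 in CHERP knockdown. The RBM17 libraries stood apart from the other 9. KIF1C rose by log2 0.64 ± 0.056 (SE), adjusted p = 1.07e-09, in RBM17 knockdown, and was higher there than in CHERP knockdown by 0.78 ± 0.056 (adjusted p = 4.64e-11). Its lower call in CHERP knockdown (-0.14, adjusted p = 0.0488) ended without CHERP library 2 or control library 1 or 3, with DESeq2 size factors, by DESeq2, with no filter on low counts and without RBM17 library 2 and control library 3 together (adjusted p 0.0593 to 0.209).

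KIF16B, which moves early endosomes, rose in the knockdowns of RBM17 (0.25, adjusted p = 0.000437), U2SURP (0.29, adjusted p = 0.000127) and CHERP (0.35, adjusted p = 8.18e-06), from 31.1 ± 1.40 CPM in control to 39.8 ± 0.545 in CHERP knockdown (SD, n = 3). KIF1B, a motor of mitochondria and synaptic vesicle precursors, had log2 fold changes of -0.16, -0.12 and -0.14 (adjusted p = 0.00582, 0.0303 and 0.0128). It was called lower in each. The RBM17 call for KIF1B ended with DESeq2 size factors and in a fit of the 2 groups alone (adjusted p 0.0753 to 0.0944). The U2SURP call ended without U2SURP library 2 or 3 or control library 1 or 2, with DESeq2 size factors, by DESeq2, with no filter on low counts and in a fit of the 2 groups alone (adjusted p 0.0516 to 0.118). The CHERP call ended without control library 1 (adjusted p 0.0607). KIF13B was called lower in RBM17 knockdown (-0.16, adjusted p = 0.0214), which ended without RBM17 library 2 or 3 or control library 1, with DESeq2 size factors, by DESeq2 and in a fit of the 2 groups alone (adjusted p 0.086 to 0.143). KIF13A, a recycling endosome motor, was called in no knockdown: it averaged 89.6 ± 0.997 CPM in control and 92.2, 94.3 and 88.1 in the knockdowns of RBM17, U2SURP and CHERP, and its log2 fold changes of 0.041, 0.074 and -0.025 each had an SE of 0.045.

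Of the kinesin-4 genes listed as transport motors, KIF21A, which restrains microtubule growth at the cell edge, rose in all 3 knockdowns (0.39, 0.27 and 0.23; adjusted p = 1.3e-06, 0.000179 and 0.000922). Its neuronal relative KIF21B (chr1:200969390-201023700) read 21.0, 19.7 and 19.1 CPM in control, 20.6, 20.5 and 21.7 in RBM17, 26.8, 27.9 and 29.9 in U2SURP and 23.5, 24.5 and 22.5 in CHERP knockdown. The U2SURP libraries were the highest and the RBM17 libraries overlapped control. KIF21B changed by 0.50 ± 0.059 (SE), adjusted p = 3.26e-07, in U2SURP, by 0.24 ± 0.059 (adjusted p = 0.00194) in CHERP and by 0.069 ± 0.059 (adjusted p = 0.344) in RBM17 knockdown. The C-type motor KIFC2, known from neurons, had the largest fall of any transport kinesin in each knockdown. KIFC2 read 20.0, 18.2 and 17.7 CPM in control, 12.9, 11.7 and 12.4 in RBM17, 10.9, 9.56 and 9.93 in U2SURP and 8.88, 8.60 and 8.48 in CHERP knockdown. The groups did not overlap and stood in that order from high to low. Its log2 fold change was -0.59 ± 0.068 (SE), adjusted p = 7.69e-08, in RBM17, -0.88 ± 0.068 (adjusted p = 7.17e-10) in U2SURP and -1.11 ± 0.069 (adjusted p = 6.75e-12) in CHERP knockdown, where the level was 46.4% of control. KIFC2 overlaps FOXH1 on the other strand. KIFC3, a minus-end motor of cell junctions and the Golgi, fell in U2SURP knockdown (-0.24, adjusted p = 0.00332), and was at 0.094 and -0.065 in the others.

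Among the 12 other kinesins, 6 rose and 1 fell in RBM17 knockdown, 3 rose and 3 fell in U2SURP knockdown, and 4 rose and 5 fell in CHERP knockdown (medians 0.15, 0.011 and -0.068). The higher and lower shares of all genes tested were 25.4% and 29.3%, 21.1% and 22.2%, and 22.8% and 24.6%. The U2SURP counts are near that background, and the 4 higher calls in CHERP knockdown are near the 29.7% of protein-coding genes. KIF2A, a kinesin-13 that depolymerises microtubules at spindle poles and in interphase cells, is the most abundant of the 12. It read 79.3, 81.9 and 86.9 CPM in control, 126, 132 and 131 in RBM17, 110.3, 122 and 116 in U2SURP and 111, 116 and 116 in CHERP knockdown, all 9 knockdown libraries being above control. KIF2A rose by log2 0.65 ± 0.052 (SE), adjusted p = 2.69e-10, by 0.49 ± 0.052 (adjusted p = 5.82e-08) and by 0.47 ± 0.051 (adjusted p = 7.11e-08) in the knockdowns of RBM17, U2SURP and CHERP. It overlaps IPO11 on the same strand and DIMT1 on the other. KIF1BP, which binds several kinesins and keeps their motor domains off microtubules, read 34.8, 35.5 and 38.7 CPM in control, 56.4, 60.9 and 60.7 in RBM17, 47.5, 47.9 and 49.1 in U2SURP and 48.9, 49.7 and 50.02 in CHERP knockdown. The RBM17 libraries were the highest, and the U2SURP and CHERP libraries lay together above control. KIF1BP rose by log2 0.71 ± 0.052 (SE), adjusted p = 8.58e-11, by 0.41 ± 0.052 (adjusted p = 9.86e-07) and by 0.45 ± 0.052 (adjusted p = 1.69e-07).

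KIF24, a kinesin-13 of centrioles that restrains cilium formation, was lower in all 3 knockdowns. It read 40.4, 38.9 and 37.2 CPM in control, 29.2, 26.3 and 28.5 in RBM17, 34.5, 33.5 and 33.5 in U2SURP and 32.3, 30.4 and 29.2 in CHERP knockdown, with no overlap with control. The log2 fold change was -0.47 ± 0.056 (SE), adjusted p = 1.34e-07, in RBM17, -0.20 ± 0.056 (adjusted p = 0.0053) in U2SURP and -0.34 ± 0.056 (adjusted p = 1.8e-05) in CHERP knockdown. KIF24 overlaps UBAP1 on the other strand. KIF7 and KIF27, kinesin-4 genes related to the Hedgehog regulator Costal2 of flies, differed: KIF7 fell in U2SURP knockdown (49.9 ± 0.478 against 61.2 ± 2.75 CPM; -0.30, adjusted p = 5.56e-05). KIF27 read 6.87, 7.13 and 7.46 CPM in control, 6.05, 6.79 and 6.43 in RBM17, 7.21, 7.89 and 7.61 in U2SURP and 8.45, 9.49 and 9.02 in CHERP knockdown, where it rose by log2 0.33 ± 0.073 (SE), adjusted p = 0.000627. The smaller KIF7 call in CHERP knockdown (-0.15, adjusted p = 0.0185) ended without CHERP library 2 or control library 1 and with DESeq2 size factors (adjusted p 0.0516 to 0.109). KIF27 in RBM17 knockdown was not called (-0.15, adjusted p = 0.0802) but was in a fit of protein-coding genes (adjusted p 0.00691).

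KIF26A and KIF26B are kinesin-11 proteins without ordinary motor activity, and they parted too. KIF26A read 49.2, 44.0 and 44.9 CPM in control, 45.6, 44.8 and 42.4 in RBM17, 43.1, 46.7 and 43.5 in U2SURP and 38.1, 37.6 and 35.8 in CHERP knockdown. It fell in CHERP knockdown (-0.31 ± 0.055 SE, adjusted p = 5.9e-05), where no library reached those of the other groups. Changes of KIF26A in RBM17 and U2SURP knockdown were -0.056 and -0.05 and were not called, the first becoming a call in a fit of protein-coding genes (adjusted p 0.0462). KIF26B read 6.09, 6.08 and 6.10 CPM in control, 6.31, 7.54 and 7.63 in RBM17, 8.02, 8.69 and 8.30 in U2SURP and 7.57, 7.598 and 7.06 in CHERP knockdown, all above control. It was called at 0.45 ± 0.077 (adjusted p = 4.23e-05) in U2SURP, 0.28 ± 0.077 (adjusted p = 0.00413) in CHERP and 0.23 ± 0.078 (adjusted p = 0.0139) in RBM17 knockdown, the last call ending without RBM17 library 2 or 3, in a fit of protein-coding genes and without RBM17 library 2 and control library 3 together (adjusted p 0.0591 to 0.0975).

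Motile-cilium kinesins were scarce. KIF6 read 1.61, 2.10 and 1.77 CPM in control, 2.55, 3.36 and 3.14 in RBM17, 1.83, 1.78 and 1.91 in U2SURP and 1.72, 2.21 and 2.17 in CHERP knockdown. Only its RBM17 libraries all lay above the control libraries, and its log2 fold change there was 0.72 ± 0.12 (SE), adjusted p = 2.78e-05. KIF9, its kinesin-9 relative, rose in RBM17 knockdown (4.83 ± 0.311 against 3.90 ± 0.315 CPM; 0.31, adjusted p = 0.00349) and was called lower in CHERP knockdown (3.31 ± 0.0608 CPM; -0.24, adjusted p = 0.0256). The CHERP call for KIF9 ended without CHERP library 1 or 2 or control library 3, with no filter on low counts and without RBM17 library 2 and control library 3 together (adjusted p 0.0514 to 0.144), and the gene overlaps KIF9-AS1 and KLHL18 on the other strand. KIF12 was at 1.02, 0.918 and 0.901 CPM in control and fell in U2SURP knockdown to 0.584, 0.415 and 0.391 (-1.03 ± 0.18 SE, adjusted p = 6.76e-05) and in CHERP knockdown to 0.419, 0.610 and 0.452 (-0.94 ± 0.18, adjusted p = 0.000152). KIF19 had between 12 and 71 counts in a library. It was called in RBM17 knockdown (1.10 ± 0.38 SE, adjusted p = 0.0164), and the call ended without RBM17 library 1 (adjusted p 0.168). KIF25 was called in no knockdown, at -0.062, -0.33 and 0.015 with SEs of 0.21 to 0.22, so changes of that size were not detectable at its depth.

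The median log2 fold change of the 13 mitotic genes exceeded that of the 17 transport genes by 0.119 for RBM17, 0.131 for U2SURP and 0.329 for CHERP knockdown. Taken library by library against the control mean, that difference was -0.0566, 0.00701 and 0.0199 in the 3 control libraries. It was 0.115, 0.146 and 0.133 in RBM17 knockdown, 0.116, 0.162 and 0.0941 in U2SURP knockdown, and 0.298, 0.39 and 0.292 in CHERP knockdown. All 9 knockdown libraries were above all 3 control libraries, and the CHERP libraries were the highest. The 3 control libraries make up the mean used as reference, so their values are centred by construction, and all 9 knockdown libraries share that reference. The value for U2SURP knockdown was 0.0646 without control library 1 and 0.201 without control library 3. As the members of both lists were chosen with earlier results known, this difference is a description and has no test.

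Summed levels per kilobase weight the abundant genes. The mitotic genes summed to 236 ± 6.95 CPM per kilobase in control (SD, n = 3), 267 ± 7.77 after RBM17, 241 ± 0.257 after U2SURP and 277 ± 5.07 after CHERP knockdown. The transport genes summed to 139 ± 2.29, 161 ± 2.12, 138 ± 1.65 and 141 ± 2.62, and the other genes to 52.5 ± 0.747, 65.2 ± 1.63, 58.4 ± 1.54 and 57.9 ± 0.472. In RBM17 knockdown all 3 sums lay above the control sums in every library, and the other sum did so in U2SURP knockdown and the mitotic and other sums in CHERP knockdown. The mitotic share of the kinesin level was 54.7% to 55.6% in control libraries, 53.7% to 54.5% in RBM17, 54.8% to 55.3% in U2SURP and 57.4% to 58.7% in CHERP knockdown. The CHERP libraries lay above the control range, the U2SURP libraries within it and the RBM17 libraries below it. The transport share was 32.6% ± 0.289 in control and 29.6% ± 0.729 in CHERP knockdown.

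**Figure D4:**
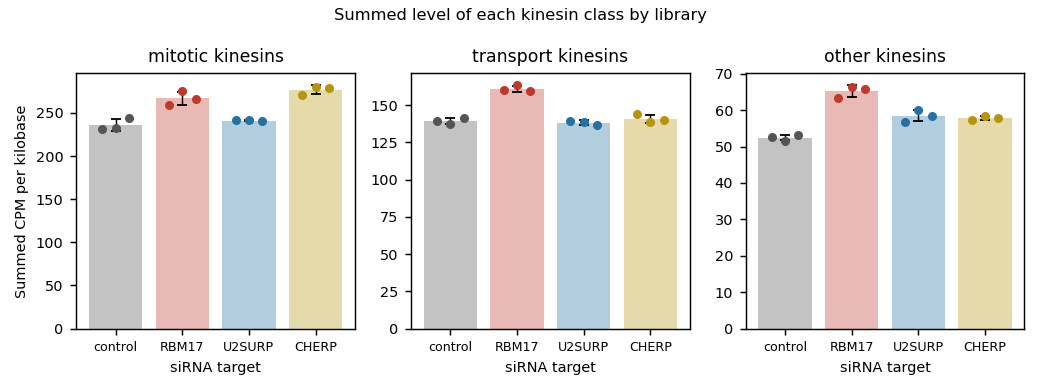
Summed level of the 14 mitotic, 17 transport and 12 other kinesin genes in CPM per kilobase of merged exon; bars are means of 3 libraries, whiskers the SD and points the libraries. The mitotic sum is higher in RBM17 and CHERP knockdown than in control, and the transport sum of every RBM17 library is above the control libraries.

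The lists also differ in gene structure. The tested mitotic genes have a median span of 34182 bases and a median of 21 exons in the transcript with the most exons, the transport genes 57348 bases and 26 exons, and the other genes 55125 bases and 18.5 exons. All protein-coding genes tested have a median span of 31609 bases and 9 exons.

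Across the knockdowns, 9 of the 42 kinesins were called higher in all 3, which is 21.4% beside 10.2% of all genes tested. They were KIF15, KIF2C and KIF4A among the mitotic genes, KIF5B, KIF16B and KIF21A among the transport genes, and KIF2A, KIF26B and KIF1BP among the others. The 6 called lower in all 3 (14.3%, beside 10.8%) were KIF14, KIF1A, KIF1B, KIF5A, KIFC2 and KIF24, of which 4 are transport genes. As given above, KIF4A, KIF2C and KIF26B of the higher set and KIF14 and KIF1B of the lower set lost a call under some other settings. The 3 knockdowns share their control libraries, so calls in common are not independent. Opposite calls in different knockdowns were given to 6 genes (14.3%, beside 7.74%): KIFC1, KIF17, KIF1C, KIF3A, KIF3B and KIF9. Among these, only KIF17 kept all its calls against control under every other setting and set of libraries. Called in no knockdown were 2 genes (4.76%, beside 27.5%), KIF13A and KIF25. The shares of all genes tested in this paragraph include genes that are not protein-coding, and were not taken over protein-coding genes alone.

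The knockdowns were also compared directly, in the same fit, so the control libraries enter the scaling and the estimate of spread. Between RBM17 and U2SURP knockdown 21 kinesins were higher and 4 lower in RBM17 knockdown, beside 23.0% and 21.5% of all genes (44.5% in all), with a median of 0.2 beside -0.039. Of the protein-coding genes tested 36.2% were higher and 20.3% lower, with a median of 0.077. Mitotic genes gave 7 and 0 of the kinesin calls, transport genes 8 and 1, and others 6 and 3. Among genes with a mean of at least 1 CPM, the largest differences upward were those of KIF17, KIF1C (0.71 ± 0.056, SE; adjusted p = 4.28e-10) and KIF6 (0.71 ± 0.12; adjusted p = 4.85e-05). Downward they were those of KIF21B (-0.43 ± 0.059; adjusted p = 2.09e-06), KIF24 (-0.27 ± 0.056; adjusted p = 0.000298) and KIF27 (-0.24 ± 0.074; adjusted p = 0.0109). Below that mean, KIF12 differed by 0.87 ± 0.18 (SE), adjusted p = 0.000437. The KIF27 call ended without RBM17 library 1 or U2SURP library 2 (adjusted p 0.0515 to 0.0571), and the 4 lower calls became 2 without RBM17 library 1. KIF20A, at 0.53 ± 0.053 (adjusted p = 2.71e-08), was the largest of the 7 mitotic differences.

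Between RBM17 and CHERP knockdown 18 kinesins were higher and 7 lower in RBM17 knockdown, beside 26.1% and 25.5% of all genes (51.6% in all), with a median of 0.071 beside -0.06. Of the protein-coding genes tested 40.4% were higher and 23.0% lower, with a median of 0.086. The 18 higher calls and the kinesin median are near that background. Here mitotic genes gave 2 higher and 4 lower calls, transport genes 8 and 2, and others 8 and 1. KIF20A (0.34, adjusted p = 8.2e-06) and KIF23 (0.20, adjusted p = 0.00159) were the mitotic genes that were higher in RBM17 knockdown. KIFC1, KIF18B (-0.34, adjusted p = 2.14e-06), KIF11 (-0.15, adjusted p = 0.0399) and KIF15 (-0.15, adjusted p = 0.0233) were lower. KIF11 libraries of these groups overlapped, and its call ended without RBM17 library 1 or 3 or CHERP library 2 or 3, with DESeq2 size factors and by DESeq2 (adjusted p 0.0651 to 0.431). The KIF15 call ended without RBM17 library 1 or CHERP library 2 or 3, with DESeq2 size factors and by DESeq2 (adjusted p 0.0849 to 0.311). Without CHERP library 3 the KIF11 and KIF15 differences were -0.0666 and -0.077. KIF27 had the largest difference downward, at -0.48 ± 0.074 (SE), adjusted p = 5.92e-06. The 7 lower calls became 4 without CHERP library 2, 3 without CHERP library 3 and 3 with DESeq2 size factors.

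U2SURP and CHERP knockdown differed least over all genes, 15.0% being higher and 12.9% lower in U2SURP knockdown, 27.9% in all. Of the protein-coding genes tested 21.4% were higher and 15.2% lower. Of the kinesins 5 were higher and 14 lower, and 9 of the lower calls were mitotic while no mitotic gene was higher. Those 9 were KIF11 (-0.37, adjusted p = 5.42e-05), KIFC1 (-0.34, adjusted p = 1.29e-05), KIF18B (-0.31, adjusted p = 2.59e-05), KIF18A, KIF22, KIF4A, KIF20A, KIF14 and KIF15, the last 6 between -0.15 and -0.25. The KIF15 call ended without U2SURP library 1 or 3 or CHERP library 2 or 3 and with no filter on low counts (adjusted p 0.0501 to 0.179), that of KIF14 without U2SURP library 3 or CHERP library 2 (adjusted p 0.0515 to 0.0883) and that of KIF20A without U2SURP library 2 or CHERP library 1 (adjusted p 0.0505 to 0.0563). Of the higher calls, KIF3A (0.47, adjusted p = 6.38e-07), KIF21B (0.26, adjusted p = 0.00139) and KIF26A (0.26, adjusted p = 0.000972) were the largest. The median was -0.19 for mitotic and 0.018 for transport genes, -0.0057 over all genes tested and 0.017 over the protein-coding genes among them. The 5 higher calls became 3 without U2SURP library 1 and 3 without CHERP library 2.

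Proteins that work with the mitotic kinesins were listed separately, and include the kinesin-7 motor CENPE, whose symbol does not start with KIF. Of 16 such genes 12 rose and 2 fell in RBM17 knockdown, 7 rose and 3 fell in U2SURP knockdown, and 10 rose and 5 fell in CHERP knockdown (medians 0.4, 0.019 and 0.24). The shares of all genes tested that were higher and lower were 25.4% and 29.3% in RBM17, 21.1% and 22.2% in U2SURP, and 22.8% and 24.6% in CHERP knockdown. BIRC5, of the chromosomal passenger complex that KIF20A carries to the midzone, rose by log2 0.77 ± 0.052 (SE), adjusted p = 2.32e-11, in RBM17 knockdown. AURKA, a spindle pole kinase, rose there by 0.72 (adjusted p = 5.96e-11), while CIT, the citron kinase that KIF14 brings to the midbody, fell by 0.35 (adjusted p = 7.96e-07). MKI67, a coat protein of mitotic chromosomes, fell in all 3 knockdowns (-0.64, -0.47 and -0.53; adjusted p = 3.91e-10, 1.39e-07 and 1.06e-08). In U2SURP knockdown NUSAP1 (0.45, adjusted p = 1.86e-05) and HMMR (0.55, adjusted p = 2.43e-05) rose, and CENPE fell (-0.20, adjusted p = 0.00546). In CHERP knockdown CDCA8 (0.48, adjusted p = 5.33e-08) and RACGAP1, the partner of KIF23 in centralspindlin (0.45, adjusted p = 7.45e-08), rose, and CENPE fell by 0.42 (adjusted p = 2.13e-06).

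General cell cycle genes moved in the same libraries. Of 18 G2 and mitosis genes, 16 rose and 1 fell in RBM17 knockdown, 8 and 1 in U2SURP knockdown, and 13 and 1 in CHERP knockdown, with medians of 0.48, 0.15 and 0.23, beside 25.4% and 29.3%, 21.1% and 22.2%, and 22.8% and 24.6% of all genes tested. CDC20, the activator of the anaphase-promoting complex, rose by log2 0.89 ± 0.052 (SE), adjusted p = 3.31e-12, in RBM17 knockdown, and TOP2A by 0.56 ± 0.061 (adjusted p = 6.01e-08) in CHERP knockdown. The gene that fell in each was CENPF (-0.18, -0.22 and -0.13; adjusted p = 0.00497, 0.00178 and 0.045). Of 15 G1 and S phase genes 11 rose and 2 fell, 11 and 1, and 13 and 1, with medians of 0.49, 0.29 and 0.3. MCM2, of the replicative helicase, rose by log2 0.66, 0.57 and 0.66 (adjusted p = 6.05e-10, 2.28e-08 and 1e-09). CDT1 fell in RBM17 knockdown (-0.58, adjusted p = 8.34e-09) and rose in CHERP knockdown (0.78, adjusted p = 1.16e-10). The part of the cell cycle in the kinesin changes was not tested.

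Cargo partners of the transport kinesins gave 10 higher and 3 lower calls of 19 in RBM17 knockdown, 8 and 3 in U2SURP knockdown, and 6 and 7 in CHERP knockdown (medians 0.15, 0.11 and 0.045), KIF1BP being counted among them too. All genes tested gave 25.4% and 29.3%, 21.1% and 22.2%, and 22.8% and 24.6%, and the cargo counts in CHERP knockdown are not far from that background. The JNK-interacting scaffolds that link kinesin-1 to cargo moved apart in RBM17 knockdown, with MAPK8IP1 (0.86, adjusted p = 5.74e-11) and MAPK8IP2 (0.80, adjusted p = 5.27e-11) rising and MAPK8IP3 falling (-0.64, adjusted p = 1.88e-09). MAPK8IP2 fell in CHERP knockdown, by 0.73 (adjusted p = 3.71e-10). KLC4, a kinesin light chain, fell in RBM17 knockdown (-0.36, adjusted p = 5.19e-06). KIFAP3, which joins KIF3A and KIF3B to cargo, rose in U2SURP knockdown (0.67 ± 0.068 SE, adjusted p = 3.6e-08), where KIF3B fell. CLSTN1, a vesicle adaptor of light chains, fell in U2SURP (-0.52, adjusted p = 1.3e-07) and CHERP knockdown (-0.64, adjusted p = 3.07e-09), and TRAK2, a mitochondrial adaptor, rose in CHERP knockdown (0.40, adjusted p = 1.33e-06). Genes of dynein and dynactin, the machinery that carries cargo the other way, gave 19 higher and 2 lower calls of 27 in RBM17 knockdown, 18 and 3 in U2SURP knockdown, and 13 and 6 in CHERP knockdown, with medians of 0.34, 0.22 and 0.14, against the same background. DYNC1LI1, a dynein light intermediate chain, rose by log2 0.74, 0.52 and 0.78 (adjusted p = 3.78e-10, 2.45e-07 and 2.27e-10), and BICD2, a dynein adaptor, fell in U2SURP (-0.32, adjusted p = 4.73e-05) and CHERP knockdown (-0.28, adjusted p = 0.000217).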

How the data were processed

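Total RNA of the 12 siRNA-treated samples was made into stranded TruSeq mRNA libraries, per the labels' protocols. The authors deposited whole-number read counts per gene ID. The submitters' processing notes name HISAT2 2.0.5, SAMtools, HTSeq and GRCh38, without saying which step used which, while the annotation release and the counting's strand setting are not stated there. Gene IDs were matched to GENCODE 29, and 56996 of 60554 had a name. Library totals and TMM scaling used all genes that passed edgeR's low-count filter.

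Counts of the 4 groups were fitted together with edgeR 4.0.16 (limma 3.58.1, R 4.3.3; robust quasi-likelihood test), and the 3 knockdowns were contrasted with control and with each other. Benjamini-Hochberg adjustment ran over 29003 genes, and an adjusted p under 0.05 was a call. Standard errors were taken from the F statistic, as the absolute change over its root. The fit was tested on simulated counts with known changes. DESeq2 1.42.0 served as an alternative, beside other scalings, filters and sets of libraries, whose effect the closing section gives.

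The members and all gene lists were chosen with earlier results of these data known. Every kinesin is accounted for, and each library's value is given at least for the 5 largest rises and falls per knockdown and the 3 per direct comparison among called genes with a mean of at least 1 CPM. The same was done for the member of each list with the highest mean level per kilobase. From each partner and cell cycle list up to 2 called genes per direction and knockdown were taken by smallest p.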

Additional observations from a re-analysis of the deposited data

Results flagged for a closer look

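Several kinesins were called in opposite directions against control in a pair of knockdowns, and the direct comparison between those knockdowns, by edgeR's quasi-likelihood test with Benjamini-Hochberg adjustment over all genes, was also called. The values are log2 differences, first group minus second, with their standard errors and 3 libraries a group. KIF17 differed by 1.058 ± 0.0789 (adjusted p = 1.92e-10) between RBM17 and U2SURP knockdown and by 1.004 ± 0.0787 (adjusted p = 1.95e-10) between RBM17 and CHERP knockdown. KIF1C differed by 0.777 ± 0.056 (adjusted p = 4.64e-11) between RBM17 and CHERP knockdown. KIF3A differed by 0.479 ± 0.0548 (adjusted p = 9.3e-08) between RBM17 and CHERP knockdown and by 0.468 ± 0.0548 (adjusted p = 6.38e-07) between U2SURP and CHERP knockdown. KIF3B differed by 0.379 ± 0.0519 (adjusted p = 2.05e-06) between RBM17 and U2SURP knockdown, and KIF9 by 0.547 ± 0.0854 (adjusted p = 8.77e-06) between RBM17 and CHERP knockdown. KIFC1 differed by -0.44 ± 0.049 (adjusted p = 6.06e-08) between RBM17 and CHERP knockdown and by -0.336 ± 0.0489 (adjusted p = 1.29e-05) between U2SURP and CHERP knockdown. Some of the calls against control were weak and ended under other settings or sets of libraries. They were those of KIF1C in CHERP (adjusted p = 0.0488), KIF3B in RBM17 (0.0212) and KIF9 in CHERP knockdown (0.0256). Those of KIF3A in RBM17 (0.0158) and U2SURP (0.0294) and of KIFC1 in U2SURP knockdown (0.0112) ended too. The KIF17 calls held in every alternative.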

How the results depend on the processing

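No paired analysis was possible because the replicate numbers follow accession order and pair no libraries across groups. Of 252 single-gene results, 190 kept their side of the threshold in every alternative and 62 changed side in at least 1. No called result changed sign, while some that were not called did, such as KIF11 in U2SURP knockdown (-0.0634 to 0.0535). Of the 5 transport kinesins lower in RBM17 knockdown, 3 were called with DESeq2 size factors and 3 in a fit of the 2 groups alone. Of the 8 higher, 5 were called among protein-coding genes only and 5 at an adjusted p under 0.01. For RBM17 against U2SURP knockdown the 4 lower calls were 2 at an adjusted p under 0.01 and 2 to 4 with 1 library left out. For RBM17 against CHERP knockdown the 7 lower calls were 3 with DESeq2 size factors, 3 at an adjusted p under 0.01 and 3 to 6 with 1 library left out. For U2SURP against CHERP knockdown the 5 higher calls were 3 at an adjusted p under 0.01 and 3 to 7 with 1 library left out, and the 14 lower calls were 8 at an adjusted p under 0.01. The mitotic minus transport difference of medians in RBM17 knockdown (0.119) was 0.107 to 0.161 with 1 library left out and 0.169 without RBM17 library 2 and control library 3 together. In U2SURP knockdown (0.131) it was 0.0646 to 0.201, and 0.201 without both. In CHERP knockdown (0.329) it was 0.29 to 0.35 with 1 library left out. KIF19, KIF25 and KIF12 are limited by their depth.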
